A study of Mus musculus with 16 samples.

Results

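Gene expression in thalamus was compared with that in cortex of the same ret/wt mice, the control animals of a study of vessel calcification in Pdgfb ret/ret mice. The members were all 8 ret/wt libraries, 4 of thalamus and 4 of cortex from 4 animals, out of 16 libraries from 8 animals. They were taken by genotype and brain region from the labels and paired by animal, and every gene in the table entered. All 8 came from mice aged 4 months on the C57BL/6 strain carrying 1 ret allele and 1 wild-type allele of Pdgfb. The ret allele encodes PDGF-B without the stretch that keeps this pericyte-recruiting growth factor near the endothelium. Animals without a ret allele were not analysed here, so the comparison describes carriers of the allele only. Per the labels, the ret/wt thalamus pieces matched the place of the calcifications picked from ret/ret brains, and ret/wt animals form no calcifications in either region. The labels name no thalamic nuclei and no cortical area.

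The thalamus relays sensory, motor and limbic signals to the cortex through glutamatergic neurons that arise in the diencephalon and mostly load their vesicles through the transporter Slc17a6. Cortical glutamatergic neurons arise in the telencephalon, depend on factors such as Tbr1 and Fezf2, and mostly use Slc17a7. In rodents the inhibitory neurons of most thalamic nuclei sit in a shell around them, the reticular nucleus, whereas the cortex holds many local interneuron types derived from the ganglionic eminences.

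Total estimated counts were 13415391 to 24500733 per ret/wt library, and mitochondrially encoded genes took 3.22% to 8.80% of them. On log2 CPM (counts scaled to the library total), the first principal component held 43.2% of the variance and separated the regions. The second held 15.6% and set thalamus replicate 4, at -69.0, apart from the other thalamus libraries at 29.5 to 34.0. In that library long transcripts were low: relative to the thalamus mean, the median of the longest transcripts minus that of the shortest was -0.98 on the log2 scale, against 0.05 to 0.46 in the other thalamus libraries (equal length classes, short, middle and long). Cortex replicate 3 held cerebellum genes at a summed 1903 CPM against 15.6 to 24.4 CPM in the other cortex libraries. Cortex replicate 4 held choroid plexus genes at a summed 1158 CPM against 18.4 to 69.98 CPM. Both libraries of replicate 3 carried the Y-linked gene Ddx3y, at 54.8 and 67.3 CPM, and no other library exceeded 0.22 CPM. The labels give no sex, and the animal term in the model takes up differences between animals that both regions share.

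Of 14442 genes tested, 1487 (10.3%) differed between the regions, 619 higher in thalamus (4.29% of the genes tested) and 868 lower (6.01%). A gene was counted as different at an adjusted p under 0.05 in edgeR's paired quasi-likelihood test with Benjamini-Hochberg adjustment. All 1487 had the same sign in 4 of 4 animals, and 528 of the higher and 758 of the lower genes differed by at least 2-fold. The values of the regions did not overlap in 2888 genes (20% of those tested). The median log2 fold change of all genes was 0.02. Upper-quartile scaling moved it to 0.12, with 784 genes higher and 770 lower, and scaling by library size alone moved it to 0.11, with 772 higher and 751 lower. The number of genes was 593 without replicate 1, 551 without replicate 2, 736 without replicate 3 and 1553 without replicate 4. Of the 1487 genes, 1486 or 1487 kept their sign in each of these fits. The short length class held 197 higher and 137 lower genes and the long class 177 and 411. Without replicate 4 these counts were 174 and 164 against 241 and 390. The part of transcript length in single genes was not tested. In these pieces of tissue, fewer cells of a type and less RNA per cell cannot be told apart.

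**Figure D1:**
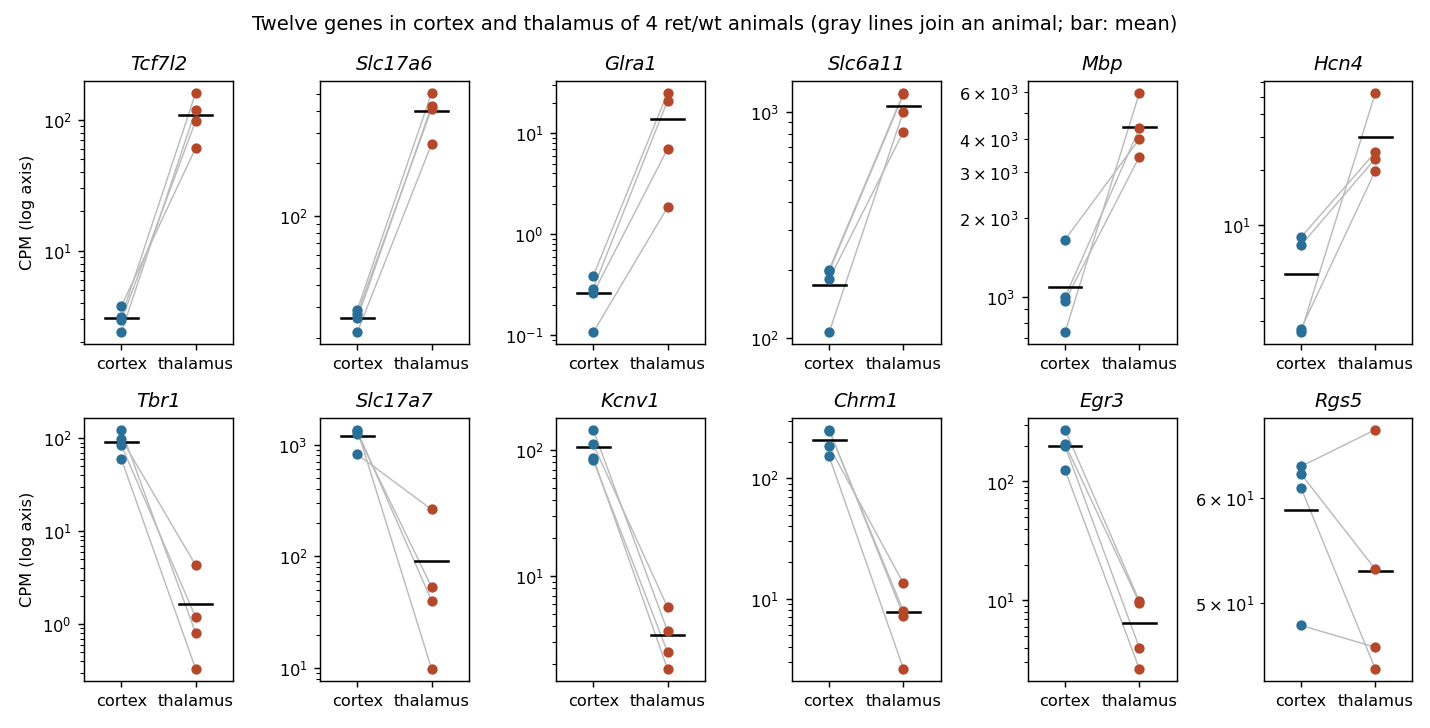
CPM (log axis) of 12 genes in the cortex (blue) and thalamus (red) libraries of 4 ret/wt animals, with the mean as a black bar and a gray line joining the libraries of an animal. The regions do not overlap in 11 genes, whereas the pericyte gene Rgs5 overlaps and did not pass the test.

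Transcription factors that set regional identity separated cortex from thalamus. Among 17 tested factors known from thalamus and habenula, 11 were higher in thalamus and 0 were lower, with a median log2 fold change of 3.85. Among 20 tested factors known from cortical projection neurons, 0 were higher and 11 were lower, with a median of -2.33. The counts stayed at 8 to 11 and at 9 to 10 when 1 animal was left out. These lists were chosen with results of these data known, so their direction is not independent evidence.

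Tcf7l2 (ENSMUSG00000024985, chromosome 19, 55741820 to 55933654, + strand), a Wnt-pathway factor that marks thalamic glutamatergic neurons, was at 61.0, 119, 160 and 98.4 CPM in thalamus replicates 1 to 4. In cortex it was at 3.79, 2.39, 3.12 and 2.94 CPM. Every thalamus value was far above every cortex value, and the difference was 34.4-fold (log2 5.10 ± 0.35 SE, adjusted p 0.0010). Shox2 (ENSMUSG00000027833, chromosome 3, 66971727 to 66981771, - strand), a homeobox gene of thalamic relay neurons, had the largest fitted rise of the genes tested. It was at 59.9, 41.8, 108 and 43.7 CPM in thalamus, against 0.05 to 0.13 CPM in cortex. No cortex library held more than 3 counts. The ratio of summed counts, scaled to library depth, was 719, with a 95% counting interval of 330 to 1959. Lhx9, a LIM-homeobox factor of developing thalamus, was at 25.4 to 41.3 CPM in thalamus and at 12.7 CPM in cortex replicate 4 against 0.31 to 0.997 CPM in the other cortex libraries. Lhx9 is outside the naming rule and was picked after its values were seen. Its log2 fold change was 4.38 ± 0.96 (SE, adjusted p 0.0331), 3.67 without replicate 1 and 5.50 without replicate 4, and its call was lost without replicates 1, 2 and 3 and, at an adjusted p of 0.0521, without the animal term.

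Among the next largest rises were factors of the dorsal midbrain, pretectum, habenula and brainstem. Sox14, a factor of pretectal and lateral geniculate GABAergic neurons, was at 1.25 to 6.99 CPM in thalamus and at 0 counts in cortex. Against a floor of 3 counts over all cortex libraries together, Sox14 was at least 114-fold higher. Gata3, which specifies GABAergic neurons in midbrain and brainstem, was at 14.5, 11.2, 5.17 and 16.4 CPM in thalamus and at most 0.08 CPM in cortex. Pax7, a factor of the dorsal midbrain, was at 31.2, 21.8, 5.64 and 14.7 CPM in thalamus and at most 0.09 CPM in cortex. Replicate 3 was the lowest thalamus library for Sox14, Gata3 and Pax7. The summed count ratio, scaled to library depth, was 413 for Gata3 (95% counting interval 114 to 3417) and 339 for Pax7 (132 to 1247). The remaining rises named by the rule were Pou4f1 (log2 6.55 ± 0.64 SE) and Pou4f2, POU factors of habenula and tectum, Dmbx1 and Foxb1, homeobox and forkhead genes of the diencephalon and midbrain, Mab21l2, and Lbhd2. Pou4f2, Dmbx1, Foxb1 and Lbhd2 had at most 3 counts in any cortex library. Their summed count ratios, scaled likewise, were 351, 121, 91.5 and 115, and the lowest of the lower interval bounds was 31.0. The adjusted p of these 9 genes was 0.0103 or lower, and their calls held without each animal. The fitted differences of Foxb1 (8.95 without replicate 4), Mab21l2 (8.26 without replicate 3), Dmbx1 (5.59 without replicate 4 to 7.30 without replicate 2), Gata3 (7.62 without replicate 4 to 8.91 without replicate 3), Pax7 (7.26 without replicate 1 to 8.70 without replicate 3), Pou4f1 (7.17 without replicate 1) and Pou4f2 (7.03 without replicate 1) moved by over 1.5 times.

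Among the cortical factors, Tbr1 (ENSMUSG00000035033, chromosome 2, 61802930 to 61814114, + strand), which specifies deep-layer corticothalamic neurons, was at 124, 98.8, 84.2 and 59.7 CPM in cortex replicates 1 to 4. In thalamus it was at 0.80, 4.31, 1.19 and 0.33 CPM. The fall was 72.7-fold (log2 -6.18 ± 0.55 SE, adjusted p 0.00194). Fezf2, the determinant of subcerebral projection neurons, was at 26.6 to 29.01 CPM in cortex and at 0 to 1.09 CPM in thalamus (log2 -6.49 ± 0.72 SE, adjusted p 0.00363). It had the largest fitted fall among the genes that met the naming rule. Thalamus replicate 2 was the highest thalamus library for Tbr1 and Fezf2. Without replicate 2 the log2 fold changes of Tbr1 and Fezf2 were -6.89 and -7.59. The other large falls were those of Ovol2, a zinc-finger factor (log2 -6.44 ± 0.66 SE), Rtn4rl2, a Nogo receptor relative (-6.35 ± 0.50), and Gm11549 (-6.30 ± 0.79). Igfn1 (-5.86 ± 0.39) and Mei1, a meiosis gene (-5.75 ± 0.95), followed. Ackr2, a scavenging chemokine receptor, had at most 2 counts in any thalamus library. Its summed counts, scaled to library depth, were 77.6 times as high in cortex (95% counting interval 32.9 to 240). Cortex replicate 1 held Ackr2 at 17.9 CPM against 1.39 to 3.40 CPM in the other cortex libraries. The fitted fall of Ackr2 was -5.10 without replicate 1 and -7.13 without replicate 4. Rtn4rl2 was at -6.96 without replicate 1, Gm11549 at -7.00 without replicate 2 and -5.65 without replicate 3, and Mei1 at -4.79 without replicate 1 and -7.70 without replicate 2. The call of Mei1 was lost without replicate 3, at an adjusted p of 0.0619.

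Of the cortical neuron effector genes, which act in synapses and signalling, 0 of 20 were higher and 15 were lower, with a median log2 fold change of -2.13. Without 1 animal 9 to 15 were lower, and 1 was higher without replicate 3. Crym, a thyroid hormone-binding protein of deep-layer neurons, fell by 5.38 ± 0.38 (SE) on the log2 scale. Nrgn, the calmodulin-binding protein neurogranin, was at 1121, 579, 369 and 467 CPM in cortex and at 71.2, 70.2, 17.7 and 102 CPM in thalamus. The lowest cortex library lay well above the highest thalamus library, and the log2 fold change was -3.40 ± 0.40 (SE, adjusted p 0.00427). Rgs14, a regulator of G-protein signalling, changed by -3.76 ± 0.52 and by -4.39 without replicate 3.

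The vesicular glutamate transporters divided the regions. Slc17a6 (VGLUT2; ENSMUSG00000030500, chromosome 7, 51622006 to 51671119, + strand) was at 428, 413, 508 and 259 CPM in thalamus and at 25.8, 27.4, 28.9 and 21.5 CPM in cortex. It was 15.2-fold higher in thalamus (log2 3.92 ± 0.21 SE, adjusted p 0.0010). Slc17a7 (VGLUT1; ENSMUSG00000070570, chromosome 7, 45163949 to 45176142, + strand) was at 1359, 1246, 818 and 1326 CPM in cortex. Its thalamus values were 9.87, 53.3, 263 and 40.2 CPM, spread far more widely than those in cortex. Slc17a7 changed by -4.65 ± 0.90 (log2, SE, adjusted p 0.0224), by -3.82 without replicate 1 and by -5.53 without replicate 3. Its call was lost without replicates 2 and 4, with an adjusted p of up to 0.0911.

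Of 16 effector genes of thalamic neurons, 8 were higher in thalamus and 0 lower, with a median log2 fold change of 2.34. Without replicate 1 there were 9 higher genes, and 3 or 4 without any other animal. Prkcd, a protein kinase C strong in sensory relay nuclei, was at 10.6, 99.6, 1147 and 184 CPM in thalamus and at 7.27, 9.998, 23.5 and 7.76 CPM in cortex. Thalamus replicate 1 lay below cortex replicate 3, so the regions overlapped. The log2 fold change of Prkcd was 3.66 ± 0.85 (SE, adjusted p 0.0395), 4.51 without replicate 1 and 2.90 without replicate 3. Slitrk6, a synapse-organizing membrane protein, was at 6.73, 17.97, 62.2 and 8.13 CPM in thalamus and at most 0.48 CPM in cortex (log2 5.89 ± 0.67 SE, adjusted p 0.00395). The Slitrk6 difference was 5.09 without replicate 3 and 6.84 without replicate 4. Tnnt1, a troponin found in thalamic neurons, ranged from 4.32 CPM in replicate 1 to 60.5 CPM in replicate 4 and stood at 1.82 to 2.32 CPM in cortex. Without replicate 1 the Tnnt1 difference rose from 3.55 to 4.32. The calls of Prkcd and Tnnt1 were lost in 3 of the 4 fits without 1 animal, with adjusted p-values of up to 0.125 and 0.109.

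The thalamus pieces differed among themselves. The score of the thalamic effector list, its mean log2 (CPM + 0.5), was 4.75, 6.01, 7.41 and 6.19 in replicates 1 to 4. Replicate 3 was the highest thalamus library for Shox2, Tcf7l2, Prkcd, Slitrk6 and Slc17a7 and the lowest for Gata3, Pax7, Pou4f1, Pou4f2, Sox14, Dmbx1 and Foxb1. Replicate 1 was the lowest for Prkcd, Slitrk6, Tcf7l2 and Slc17a7 and the highest for Pax7, Pou4f1, Pou4f2 and Sox14. The list of midbrain dopamine neuron genes summed to 63.6, 33.6, 19.7 and 33.2 CPM in thalamus and to 5.03 to 7.28 CPM in cortex. Of its 4 tested genes, 2 were higher, the dopamine transporter Slc6a3 (log2 3.87 ± 0.76 SE) and the decarboxylase Ddc (2.33 ± 0.31). Slc6a3 was at 12.1 CPM in thalamus replicate 1 and at 1.45 to 4.75 CPM in the others. The difference of Slc6a3 was 3.08 without replicate 1. Its call was lost without replicates 2 and 3, with an adjusted p of up to 0.0956. The part of the dissection in these differences was not tested.

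**Figure D2:**
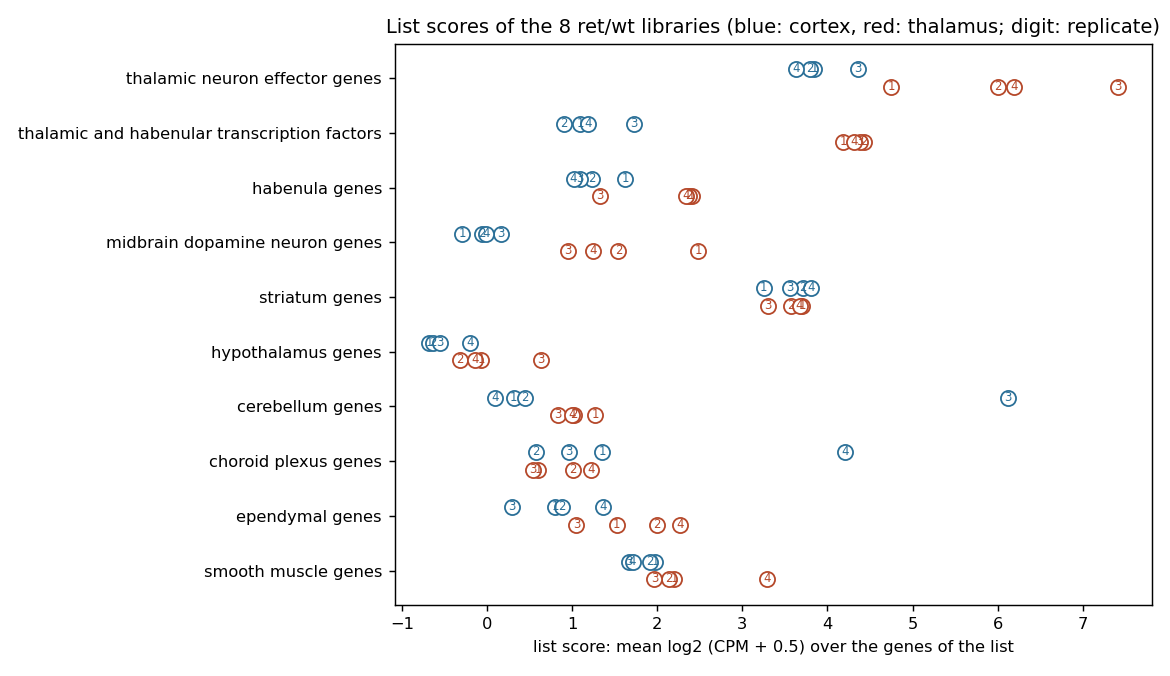
List score, the mean log2 (CPM + 0.5) over the genes of a list, for the 4 cortex (blue) and 4 thalamus (red) ret/wt libraries, with the replicate number in each marker. Cortex replicate 3 stands apart in cerebellum genes at 6.12, and cortex replicate 4 in choroid plexus genes at 4.21, and thalamus replicate 1 is the lowest thalamus library in thalamic effector genes at 4.75.

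Lists for neighbouring tissue gave mixed results. Of 8 habenula genes, 3 were higher (Pou4f1, Irx2 and the nicotinic subunit Chrna3) and 2 lower (Nwd2 and the neurokinin B gene Tac2). Together they made up 62.5% of the list, beside 10.3% over all genes. The median log2 fold change of the list was 0.55, and -0.06 without replicate 2, when 1 gene was higher. Summed habenula genes stood at 20.4 to 82.3 CPM in thalamus and 56.0 to 97.3 CPM in cortex. Irx2, an Iroquois homeobox gene, stood at 5.88 ± 0.91 and Nwd2 at -2.78 ± 0.30 (log2, SE). Irx2 was at 0.61 CPM in cortex replicate 3 and at most 0.07 CPM in the others. Its log2 fold change was 7.85 without replicate 3 and 5.204 without replicate 4, and its call was lost without replicate 2 at an adjusted p of 0.0506. Of 10 striatum genes, 2 were higher, the dopamine receptor Drd2 and the tachykinin gene Tac1, and 1 was lower. Together they made up 30.0% of the list, beside 10.3% over all genes. Without 1 animal 2 were higher in each fit and 0 to 2 lower. Of 7 tested cerebellum genes, 1 differed (14.29%, beside 10.3% over all genes), the homeobox gene Barhl1 (log2 5.67 ± 1.33 SE, adjusted p 0.0408). Cortex replicate 3 alone of the cortex libraries held Barhl1, at 0.65 CPM. Its fitted difference was 10.15 without replicate 3, 4.99 without replicate 1 and 4.76 without replicate 4, and its call was lost without replicates 1, 2 and 4. Without replicate 3, 2 cerebellum genes were higher, and in each other fit without 1 animal there were 0. The list median was -0.59, 1.37 without replicate 3 and -1.32 without replicate 4. None of the 2 tested hypothalamus genes differed (0 at an unadjusted p under 0.05), with a smallest adjusted p of 0.242, and 1 was higher without replicate 1.

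Of 21 tested GABAergic genes, 2 were higher in thalamus, 7 were lower and 12 did not pass the test. The share that differed was 42.86%, beside 10.3% over all genes, and the median log2 fold change was -0.92. Without 1 animal, 0 to 2 were higher and 4 to 8 lower. Lhx6, the factor of interneurons from the medial ganglionic eminence, was at 25.1, 22.5, 17.8 and 27.4 CPM in cortex and at 0.13 to 0.99 CPM in thalamus (log2 -5.51 ± 0.49 SE, adjusted p 0.00188). Among interneuron peptides, Cort, which encodes cortistatin, changed by -5.19 ± 0.58, Vip by -3.66 ± 0.48 and Npy by -3.05 ± 0.58 (log2, SE). The homeobox gene Dlx5 changed by -3.80 ± 0.74. The interneuron genes Pvalb, Adarb2 and Chodl did not pass the test, at 0.78 ± 0.68, 0.80 ± 0.49 and 0.77 ± 0.58. Of the genes that make and load GABA, a pair was higher. Gad2, which encodes a glutamate decarboxylase, was at 514, 483, 357 and 317 CPM in thalamus and at 187, 180, 198 and 217 CPM in cortex, 2.10-fold higher (adjusted p 0.0287). Slc32a1, the vesicular GABA transporter, was 1.98-fold higher (adjusted p 0.0245). Gad1 was at 459 ± 51.1 CPM in thalamus and 373 ± 47.4 CPM in cortex (SD, n = 4), and its log2 fold change was 0.30 ± 0.17 (SE, adjusted p 0.314). The calls of Gad2 and Slc32a1 were lost in 3 of the 4 fits without 1 animal, at adjusted p-values of up to 0.158 and 0.131. Without the animal term Slc32a1 had an adjusted p of 0.0612. The call of Npy was lost without replicate 2, and that of Dlx5 without replicates 1 and 2. Without replicate 3 the change of Dlx5 was -4.65.

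Of 12 tested general neuron genes, 0 were higher and 2 lower (16.67%, beside 6.01% lower over all genes), with a median log2 fold change of -0.49. The pan-neuronal splicing factor Rbfox3 (log2 -1.33 ± 0.21 SE, adjusted p 0.0101) and the synaptic calcium sensor Syt1 (-1.28 ± 0.26, adjusted p 0.0246) were the lower genes. Without 1 animal 1 or 2 passed the test. Rbfox3 lost its call without replicate 3, and Syt1 without replicates 1 and 2.

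Of 9 tested genes of neurofilaments and the axonal cytoskeleton, 3 were higher in thalamus and 0 lower. That share, 33.33%, stood beside 10.3% over all genes, and the median log2 fold change was 0.48. The heavy neurofilament gene Nefh was at 348, 299, 590 and 304 CPM in thalamus and at 103, 56.0, 78.9 and 47.2 CPM in cortex. Thalamus replicate 3 was highest, and the difference was 5.44-fold (log2 2.44 ± 0.25 SE, adjusted p 0.00271). Gamma-synuclein, Sncg, was 17.5-fold higher (adjusted p 0.00205) and the medium neurofilament gene Nefm 2.43-fold higher (adjusted p 0.0167). The call of Nefm was lost without replicates 1 and 3, with an adjusted p of up to 0.0778.

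Activity-dependent genes were lower in thalamus as a group. Of 16 immediate early genes tested, 13 were lower and 0 higher, with a median log2 fold change of -2.50. Without 1 animal, 10 to 14 were lower. Egr3 (ENSMUSG00000033730, chromosome 14, 70077203 to 70082614, + strand), a zinc-finger factor induced by synaptic activity, was at 273, 207, 198 and 124 CPM in cortex and at 9.83, 9.503, 3.98 and 2.64 CPM in thalamus. The fall was 34.0-fold (log2 -5.09 ± 0.30 SE, adjusted p 0.0010). Arc, which acts in removing AMPA receptors from synapses, was at 610, 770, 441 and 113 CPM in cortex and at 30.9, 39.2, 24.4 and 19.2 CPM in thalamus (log2 -3.85 ± 0.36 SE, adjusted p 0.00231). Cortex replicate 4 was the lowest cortex library for both genes, yet lay above all thalamus values. Egr2 changed by -5.43 ± 0.68 and Egr4 by -3.77 ± 0.32 (log2, SE). Thalamus replicate 2 held Egr2 at 5.24 CPM against at most 0.25 CPM in the other thalamus libraries, and without replicate 2 the change was -6.64. Npas4, a neuron-specific factor induced by calcium entry, changed by -3.22 ± 0.29. The classic gene Fos differed least of the called genes, at 33.5 ± 14.05 CPM in thalamus and 75.4 ± 41.8 CPM in cortex (SD, n = 4), with overlapping groups. Its log2 fold change was -1.08 ± 0.20 (SE, adjusted p 0.0177). The call of Fos was lost without replicates 1, 2 and 3, and without the animal term its adjusted p was 0.152. Fos and Npas4 were named after their values were seen. The labels do not give the handling of the animals before dissection.

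The start regions of 4 of these genes are shown because the cyclic AMP response element, bound by CREB, and the CArG box, bound by serum response factor, are the elements known to drive activity-dependent transcription. Each sequence is the 250 bases before a RefSeq start on GRCm38.p6, 5′ to 3′ on the gene's strand. Capitals mark the core letters TGACG of the element, on either strand, and in Egr2 also the CArG box.
Fos (chr12:85473640-85473889, + strand): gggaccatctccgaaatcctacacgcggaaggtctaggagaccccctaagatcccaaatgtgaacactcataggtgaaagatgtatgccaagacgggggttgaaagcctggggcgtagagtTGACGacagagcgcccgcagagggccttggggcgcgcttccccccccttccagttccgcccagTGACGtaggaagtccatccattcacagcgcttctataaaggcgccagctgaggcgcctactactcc
Npas4 (chr19:4989972-4990221, - strand): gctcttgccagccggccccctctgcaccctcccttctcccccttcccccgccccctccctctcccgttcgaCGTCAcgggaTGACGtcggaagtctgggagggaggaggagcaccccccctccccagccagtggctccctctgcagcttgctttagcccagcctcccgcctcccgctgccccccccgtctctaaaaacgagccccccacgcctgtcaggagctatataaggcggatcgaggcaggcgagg
Egr4 (chr6:85513590-85513839, - strand): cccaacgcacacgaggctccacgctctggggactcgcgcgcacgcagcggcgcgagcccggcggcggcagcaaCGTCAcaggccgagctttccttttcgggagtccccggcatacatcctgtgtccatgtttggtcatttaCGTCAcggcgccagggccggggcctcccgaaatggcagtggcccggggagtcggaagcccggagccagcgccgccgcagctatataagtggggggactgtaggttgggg
Egr2 (chr10:67537619-67537868, + strand): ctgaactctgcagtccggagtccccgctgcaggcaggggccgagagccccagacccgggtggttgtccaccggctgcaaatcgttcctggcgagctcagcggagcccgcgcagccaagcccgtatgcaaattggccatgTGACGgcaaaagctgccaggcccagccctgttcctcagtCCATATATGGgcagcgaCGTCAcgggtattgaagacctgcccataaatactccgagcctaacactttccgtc

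Of the 13 lower immediate early genes, 10 had 15 promoters in the RefSeq table. The core TGACG, searched on both strands, was in 11 of the 15, which belong to 9 genes. It was in 17.8% of all 32851 promoters of the table. The CArG box was in 4 of the 15, all of Egr2, against 1.47% of all promoters. The core was searched after the full element TGACGTCA had been found in only 1 of the 15, against 1.55% of all. Start sites of 1 gene overlap, and base composition was not matched. A match describes the letters in the window and was not tested for binding.

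General astrocyte genes moved both ways. Of 15 tested, 2 were higher and 2 lower in thalamus (26.67%, beside 10.3% over all genes), with a median log2 fold change of 0.47. Without replicates 1 and 3 there were 0, without replicate 2 only 1 lower, and without replicate 4 there were 3 higher and 1 lower. The glutamate transporter genes Slc1a2 and Slc1a3, which clear glutamate from synapses, changed by -1.04 ± 0.25 and -1.17 ± 0.19 (log2, SE). Slc1a3 was at 379, 438, 403 and 425 CPM in thalamus and at 839, 803, 1099 and 996 CPM in cortex. The neurotensin receptor gene Ntsr2 and the lipid enzyme gene Acsbg1 were 2.02-fold and 1.75-fold higher. The calls of Slc1a2, Slc1a3, Ntsr2 and Acsbg1 were each lost in 2 to 4 of the 4 fits without 1 animal, at adjusted p-values of up to 0.1997, and that of Slc1a2 also without the animal term (adjusted p 0.0505). Gfap, the intermediate filament of reactive and fibrous astrocytes, was at 213, 245, 57.5 and 296 CPM in thalamus and at 91.4, 178, 132 and 209 CPM in cortex. The regions overlapped, and the log2 fold change was 0.27 ± 0.38 (SE, adjusted p 0.713). It was -0.06 without replicate 1.

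Of 7 astrocyte genes known to be stronger outside the telencephalon, 6 were higher in thalamus and 0 lower, with a median log2 fold change of 2.40. The count of 6 held without each animal in turn. Agt (ENSMUSG00000031980, chromosome 8, 124556534 to 124569706, - strand), which encodes angiotensinogen, was at 124, 143, 92.8 and 167 CPM in thalamus and at 5.64, 8.91, 19.4 and 16.4 CPM in cortex. It was 11.4-fold higher (log2 3.51 ± 0.39 SE, adjusted p 0.0036). The GABA transporter GAT-3, encoded by Slc6a11, was at 1195, 1212, 1003 and 818 CPM in thalamus and at 198, 201, 106 and 182 CPM in cortex (6.26-fold, adjusted p 0.00194). Sparc, a matricellular protein, was 6.56-fold higher and Itih3, a hyaluronan-binding protein gene, 5.29-fold higher. Of 5 astrocyte genes tied to the telencephalon, 3 were lower and 0 higher (60.0%, beside 10.3% over all genes), with a median of -1.06. They included Lhx2, a LIM-homeobox factor (log2 -2.32 ± 0.49 SE) that also belongs to the cortical neuron list, and Mfge8, an opsonin gene (-1.06 ± 0.18). Without replicate 1 or without replicate 2, 1 of the 5 passed the test, and without the animal term Mfge8 had an adjusted p of 0.0549.

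**Figure D3:**
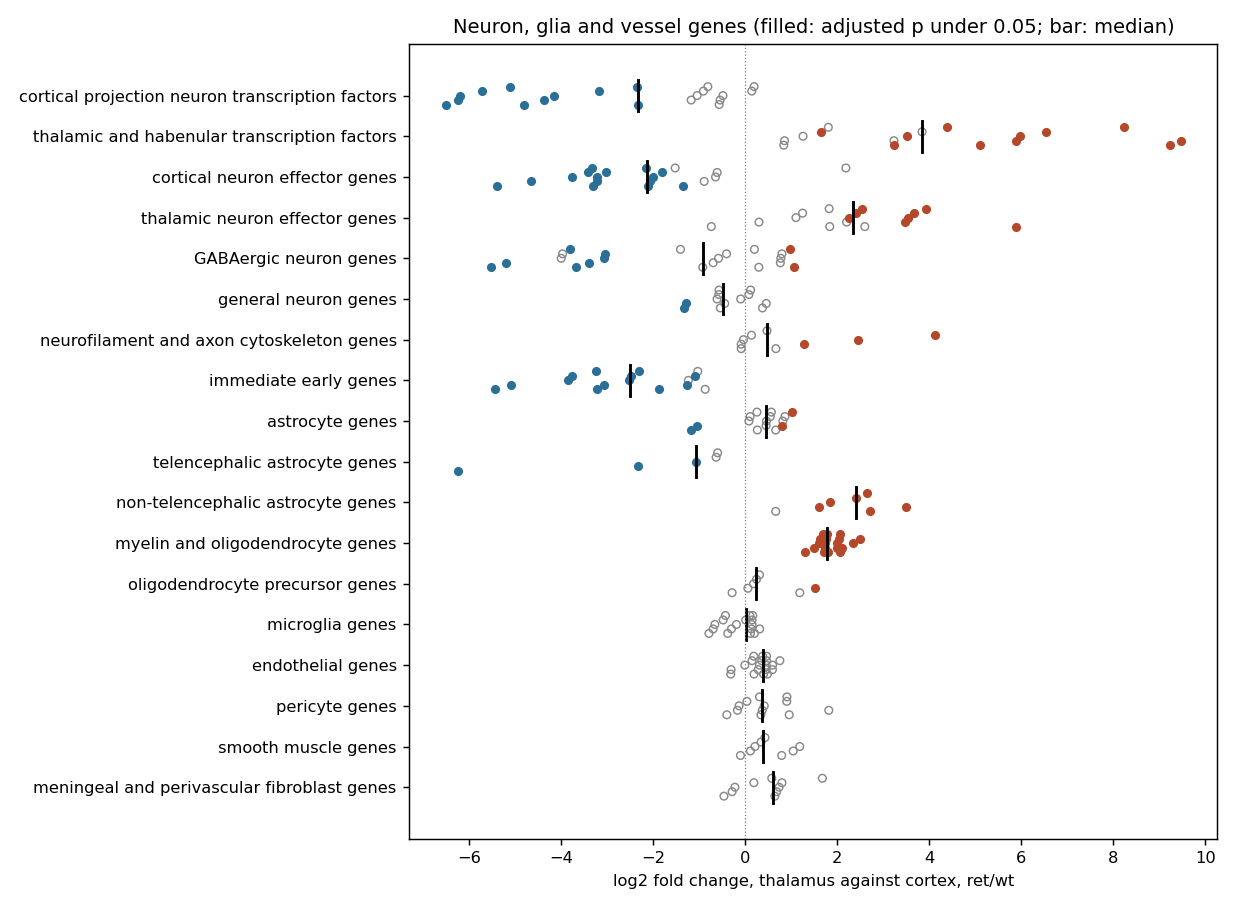
Log2 fold change, thalamus against cortex in ret/wt, of each tested gene of the neuron, glia and vessel lists, with filled markers for an adjusted p under 0.05 (red higher, blue lower) and a black bar at the list median. All 19 myelin genes are filled and lie between 1.31 and 2.49. No marker is filled in the microglia, endothelial, pericyte, smooth muscle and fibroblast lists. Over all genes tested, 10.3% passed the test.

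Myelin genes were higher in thalamus as a whole list. All 19 tested were higher, with log2 fold changes of 1.31 to 2.49 and a median of 1.79. Without 1 animal 13 to 19 of them passed the test. Mbp, which encodes the compacting protein of the sheath, was at 3416, 4375, 3990 and 5965 CPM in thalamus and at 968, 1001, 1654 and 736 CPM in cortex. The lowest thalamus library held more than the highest cortex library, and the difference was 4.16-fold (log2 2.06 ± 0.31 SE, adjusted p 0.00931). Mobp, a second compaction protein, was 4.34-fold higher (adjusted p 0.00604) and Nkx6-2, an oligodendrocyte homeobox factor, 5.62-fold (adjusted p 0.0137). Nkx6-2 lost its call without replicate 3, at an adjusted p of 0.0647. Trf, the iron carrier transferrin, was at 491, 796, 1071 and 1677 CPM in thalamus and at 146, 230, 356 and 68.5 CPM in cortex. Replicate 4 was the highest thalamus and the lowest cortex library for Trf, and without it the log2 fold change went from 2.35 to 1.71. The call of Trf was lost without replicates 1, 2 and 3. Of 7 tested genes of oligodendrocyte precursors, 1 was higher and 0 lower (14.29%, beside 10.3% over all genes), with a median of 0.25. That gene, Lhfpl3, was 2.86-fold higher (adjusted p 0.0162), and its call was lost without replicates 1, 2 and 3.

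No list of immune or vessel cells held a gene that passed the test, beside 10.3% over all genes. In lists this short a lack of calls does not show equal levels in the regions. Of 17 microglia genes, 0 differed and 3 had an unadjusted p under 0.05, with a median log2 fold change of 0.02 and a smallest adjusted p of 0.108. P2ry12, a purinergic receptor of resting microglia, was at 25.3, 16.5, 21.9 and 12.6 CPM in thalamus and at 33.2, 38.5, 25.5 and 31.2 CPM in cortex. The groups did not overlap, yet its log2 fold change of -0.78 ± 0.26 (SE) had an adjusted p of 0.108. The list median was -0.16 without replicate 3 and -0.19 without replicate 4. Trem2, a lipid-sensing microglial receptor, was at 7.82 ± 2.33 CPM in thalamus and 7.85 ± 2.60 CPM in cortex (SD, n = 4), and its log2 fold change was 0.02 ± 0.33 (SE, adjusted p 0.982). The growth factor receptor gene Csf1r stood at -0.30 ± 0.22 (log2, SE).

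Of 19 endothelial genes, 0 differed (2 at an unadjusted p under 0.05), with a median of 0.38. The glucose transporter gene Slc2a1 was at 99.9, 89.8, 131 and 164 CPM in thalamus and at 76.2, 89.0, 83.7 and 87.8 CPM in cortex (log2 0.49 ± 0.21 SE, adjusted p 0.192). Flt1, a VEGF receptor, stood at 0.19 ± 0.19 (log2, SE) and the junction protein gene Pecam1 at 0.60 ± 0.35. Pecam1 was at 38.7 CPM in thalamus replicate 4 and at 22.4 to 23.2 CPM in the other thalamus libraries. Of 12 genes of pericytes, the cells that PDGF-B recruits, 0 differed (2 at an unadjusted p under 0.05), with a median of 0.36. Rgs5, a G-protein regulator of pericytes, was at 53.0, 67.6, 46.3 and 44.6 CPM in thalamus and at 62.6, 63.4, 48.1 and 61.1 CPM in cortex (log2 -0.16 ± 0.18 SE, adjusted p 0.627). Vtn, the pericyte gene of vitronectin, was at 226 CPM in thalamus replicate 4 and at 22.3 to 60.1 CPM in the others. Without replicate 4, 1 pericyte gene was called higher. Of 8 tested smooth muscle genes and 10 fibroblast genes, 0 differed, with 2 in each list at an unadjusted p under 0.05 and medians of 0.39 and 0.61. Without replicate 4 the medians of the endothelial, pericyte, smooth muscle and fibroblast lists were 0.16, 0.13, 0.14 and 0.23. Without any other animal they ranged from 0.32 to 0.85. Smooth muscle actin, Acta2, was at 27.2 CPM in thalamus replicate 4 and at 3.09 to 7.37 CPM in the other thalamus libraries, against 3.55 to 5.34 CPM in cortex. Summed smooth muscle genes stood at 115 CPM in that library and at 47.4 to 53.98 CPM in the other thalamus libraries. Without replicate 2, and with upper-quartile or library-size scaling, 1 smooth muscle gene was called higher. Without replicate 3, 1 fibroblast gene was higher, and without the animal term 1 endothelial gene.

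Of 4 tested blood cell genes, 0 differed (0 at an unadjusted p under 0.05). Of 7 tested choroid plexus genes, 0 differed (2 at an unadjusted p under 0.05). Ttr, the transthyretin gene of choroid plexus, was at 1023 CPM in cortex replicate 4 and at 9.64 to 54.7 CPM in the other cortex libraries. The median of the choroid plexus list was -1.20, and -0.11 without replicate 4. Without replicate 3, 1 choroid plexus gene was lower. Of 6 ependymal genes, 1 was higher (16.67%, beside 10.3% over all genes). It was the ciliogenesis factor Foxj1 (3.07-fold, adjusted p 0.0244), and its call was lost without replicates 1, 2 and 3. Of 12 mitochondrially encoded genes, 0 differed (0 at an unadjusted p under 0.05), with a median of 0.30.

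Potassium channels formed the largest channel family. Of 74 tested genes, 6 were higher in thalamus and 17 lower, with a median log2 fold change of -0.13. The share lower, 17 of 74, stood beside 6.01% over all genes. Without 1 animal, 1 to 5 were higher and 8 to 12 lower. Kcnv1 (ENSMUSG00000022342, chromosome 15, 45106284 to 45114920, - strand), a silent subunit that modifies Kv2 channels, was at 145, 111, 86.6 and 82.7 CPM in cortex and at 3.69, 5.68, 1.84 and 2.51 CPM in thalamus. The fall was 32.6-fold (log2 -5.03 ± 0.29 SE, adjusted p 0.0010). Kcnh4, an Elk-type channel, changed by -3.87 ± 0.41, Kcnip2, which encodes an auxiliary subunit of A-type channels, by -3.03 ± 0.23 and Kcnq5, an M-current channel, by -2.67 ± 0.23 (log2, SE). On the higher side stood Kcnj10, the inward rectifier Kir4.1 of astrocytes and oligodendrocytes, at 679, 849, 861 and 498 CPM in thalamus and 313, 243, 252 and 131 CPM in cortex (3.15-fold, adjusted p 0.00536). The Erg channel Kcnh2 was 2.67-fold higher, the Elk channel Kcnh8 6.198-fold and the auxiliary subunit Kcne1l 3.92-fold. Kcnc1, the fast Kv3.1 channel, was at 395, 263, 329 and 266 CPM in thalamus and at 246, 143, 174 and 124 CPM in cortex (1.86-fold, adjusted p 0.0239). The calls of Kcnh2, Kcnh8, Kcne1l and Kcnc1 were lost in 2 or 3 of the 4 fits without 1 animal, with adjusted p-values of up to 0.103.

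The HCN channels carry the hyperpolarization-activated current that shapes thalamic bursting. Hcn4 (ENSMUSG00000032338, chromosome 9, 58823412 to 58863175, + strand), the slowest of them, was at 19.7, 23.0, 52.4 and 24.9 CPM in thalamus and at 2.71, 7.75, 2.60 and 8.56 CPM in cortex. Thalamus replicate 3 was highest, and the difference was 5.77-fold (log2 2.53 ± 0.51 SE, adjusted p 0.0249). Hcn2 was 2.01-fold higher (adjusted p 0.0353). Of the 4 HCN genes 2 were higher and 0 lower, with a median of 0.70, and without 1 animal 0 or 1 was higher. Hcn4 lost its call without replicates 1 and 2, and Hcn2 without each animal.

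Of 22 tested calcium channel genes, 2 were higher and 5 lower (31.82%, beside 10.3% over all genes). The median log2 fold change was -0.66. Cacng3, an AMPA receptor auxiliary subunit named with the channel family, changed by -2.30 ± 0.18 (log2, SE, adjusted p 0.00124). Cacna1e, the R-type channel, changed by -2.15 ± 0.45, Cacnb1, a beta subunit, by -1.56 ± 0.18 and Cacng8, another AMPA receptor partner, by -1.32 ± 0.30. Cacng5 was 2.57-fold and Cacna2d2 2.24-fold higher, both with overlapping groups. The thalamic T-type channel gene Cacna1g, which carries the burst current, was at 128, 96.9, 174 and 171 CPM in thalamus and at 118, 39.4, 99.0 and 68.7 CPM in cortex (log2 0.89 ± 0.25 SE, adjusted p 0.0707). The calls of Cacng5, Cacna2d2, Cacng8 and Cacna1e were lost in 2 to 4 of the 4 fits without 1 animal, which held 0 to 2 higher and 3 to 5 lower calcium channel genes. Without the animal term the adjusted p was 0.121 for Cacng5 and 0.056 for Cacna2d2.

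Of 11 tested sodium channel genes, 0 were higher and 1 lower, with a median of -0.23. That share, 9.09%, was near the 10.3% over all genes. That gene, Scn2a, a channel of unmyelinated axons and initial segments, was at 233, 257, 154 and 91.1 CPM in thalamus and at 499, 387, 519 and 521 CPM in cortex (log2 -1.49 ± 0.33 SE, adjusted p 0.0344). The interneuron channel gene Scn1a stood at 0.72 ± 0.19 (log2, SE, adjusted p 0.0592). The call of Scn2a was lost without replicates 1 and 3, and 3 sodium channel genes were higher without replicate 4 or with upper-quartile scaling. Of 15 chloride channel genes, 1 was higher, the endosomal exchanger Clcn5 (2.79-fold, adjusted p 0.0124), and 1 lower, the anoctamin Ano3 (log2 -2.60 ± 0.42 SE, adjusted p 0.0117), with a median of 0.04. Together they made up 13.33% of the list, near the 10.3% over all genes. Without replicate 4, 4 chloride channel genes were higher. Of 17 tested TRP channel genes, 0 were higher and 3 lower (17.65%, beside 6.01% lower over all genes), with a median of -0.15. The list was taken by symbol and also holds Trpc4ap, named for a protein associated with Trpc4. The lower genes were Trpc6 (log2 -2.40 ± 0.33 SE), Trpc4 (-2.11 ± 0.43) and Trpc1 (-1.31 ± 0.28), which encode cation channels downstream of phospholipase C. Trpc4 was at 39.7 CPM in cortex replicate 4 and at 13.5 to 15.1 CPM in the other cortex libraries. The calls of Clcn5, Ano3, Trpc4 and Trpc1 were lost in 1 to 3 of the 4 fits without 1 animal, and without replicate 1, 2 or 3 only 1 TRP channel gene was lower.

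**Figure D4:**
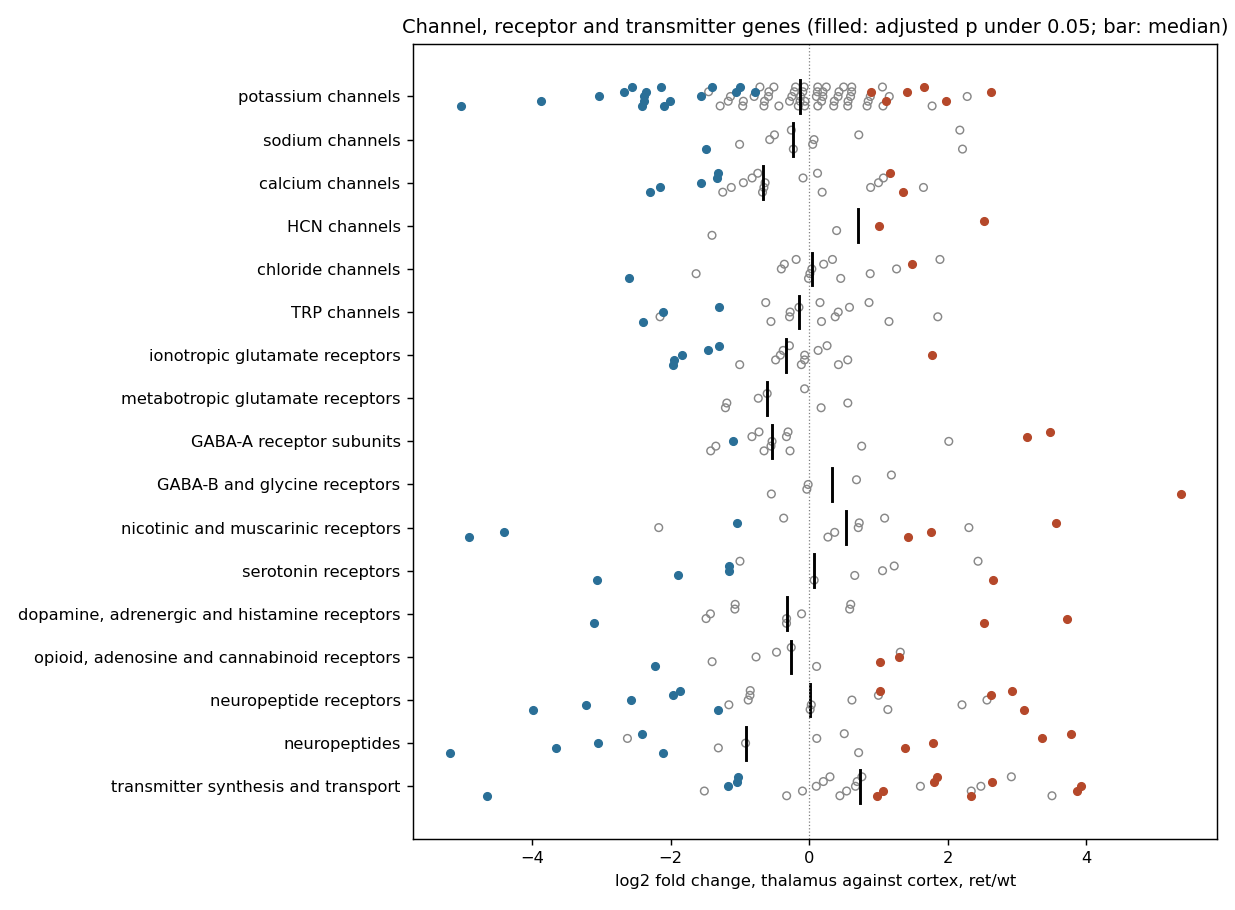
Log2 fold change, thalamus against cortex in ret/wt, of each tested gene of the channel, receptor and transmitter lists, with filled markers for an adjusted p under 0.05 (red higher, blue lower) and a black bar at the list median. Medians lie between -0.92 and 0.73, and most lists hold filled markers on both sides of 0.

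Ionotropic glutamate receptor genes were lower where they differed, with 1 exception. The 18 tested were taken by symbol and include Grid2ip, named for a receptor-interacting protein. Of these, 1 was higher and 5 lower (33.33%, beside 10.3% over all genes), with a median log2 fold change of -0.33. Gria2, the subunit that makes AMPA receptors impermeable to calcium, was at 265, 256, 150 and 69.1 CPM in thalamus and at 640, 558, 618 and 767 CPM in cortex (log2 -1.95 ± 0.41 SE, adjusted p 0.028). The NMDA receptor subunits Grin2a and Grin2b changed by -1.83 ± 0.32 and -1.97 ± 0.49, and the AMPA subunit Gria3 by -1.46 ± 0.34 (log2, SE). The exception, Grin2d, an NMDA subunit with slow decay, was at 38.04, 30.4, 28.1 and 28.0 CPM in thalamus and at 8.82, 9.71, 5.59 and 13.9 CPM in cortex (3.41-fold, adjusted p 0.010). Thalamus replicate 4, the library low in long transcripts, was the lowest for Gria2, Gria3, Grin2a and Grin2b. Without replicate 4 there were 2 higher and 4 lower genes, and 1 to 3 lower without any other animal. Gria2, Gria3 and Grin2b lost their calls in 3 of the 4 fits without 1 animal, Grin2d in 2 and Grin2a in 1. Of 7 metabotropic glutamate receptor genes, 0 differed and 1 had an unadjusted p under 0.05, with a median of -0.61 and a smallest adjusted p of 0.0512. Grm5 was at 101 ± 55.9 CPM in thalamus and 227 ± 106 CPM in cortex (SD, n = 4), with overlapping groups.

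Of 15 tested GABA-A subunit genes, 2 were higher and 1 lower, with a median of -0.54. Gabrq (theta) and Gabre (epsilon), minor subunits, were 11.1-fold and 8.89-fold higher. Both calls were lost without replicates 1, 2 and 3. Gabrq stood at 4.30 on the log2 scale without replicate 4. Of 6 GABA-B and glycine receptor genes, 1 was higher and 0 lower (16.67%, beside 10.3% over all genes), with a median of 0.33. That gene, Glra1 (ENSMUSG00000000263, chromosome 11, 55514238 to 55608198, - strand), the adult glycine receptor subunit of brainstem and spinal cord, was at 25.1, 21.03, 7.01 and 1.85 CPM in thalamus. In cortex it was at 0.39, 0.29, 0.26 and 0.11 CPM. Thalamus replicates 1 and 2 were high and replicate 4 low, and the difference was 41.3-fold (log2 5.37 ± 0.45 SE, adjusted p 0.00157). Its call held without each animal, and 3 genes of this list were higher without replicate 4.

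Acetylcholine receptor genes moved in both directions. Of 14 tested, 3 were higher and 3 lower (42.86%, beside 10.3% over all genes), with a median of 0.54. Chrm1 (ENSMUSG00000032773, chromosome 19, 8663789 to 8683587, + strand), the excitatory M1 receptor, was at 253, 184, 152 and 248 CPM in cortex and at 7.24, 13.4, 2.61 and 7.86 CPM in thalamus. The fall was 30.2-fold (log2 -4.92 ± 0.38 SE, adjusted p 0.00124). Chrm4, the inhibitory M4 receptor, changed by -4.40 ± 0.33 and Chrm3 by -1.04 ± 0.20 (log2, SE). Chrm2, the inhibitory M2 receptor, was at 68.7, 50.7, 35.4 and 28.3 CPM in thalamus and at 17.7, 11.01, 19.7 and 6.90 CPM in cortex (3.39-fold, adjusted p 0.0105). The nicotinic subunits Chrna3 and Chrna4 were 11.8-fold and 2.68-fold higher. Ache, the acetylcholine-degrading esterase, was 3.48-fold higher (adjusted p 0.00432), and was named after its values were seen. The calls of Chrm2, Chrm3, Chrna3 and Chrna4 were lost in 2 or 3 of the 4 fits without 1 animal. Without 1 animal, 0 to 2 of these receptor genes were higher and 2 or 3 lower. Chrna3 stood at 4.29 on the log2 scale without replicate 3. Without the animal term Chrm3 had an adjusted p of 0.0583.

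Of 11 tested serotonin receptor genes, 1 was higher and 4 lower (45.45%, beside 10.3% over all genes), with a median of 0.07. The ion channel subunit gene Htr3a changed by -3.06 ± 0.43 and Htr2a by -1.16 ± 0.23, while Htr1d was 6.29-fold higher. Htr2a and Htr1d lost their calls without replicates 1 and 3. The number of lower serotonin receptor genes was 1 without replicate 1 or 3, 2 without replicate 2 and 3 without replicate 4, and 3 were higher without replicate 4. Of 12 dopamine, adrenergic and histamine receptor genes, 2 were higher and 1 lower (25.0%, beside 10.3% over all genes). The list median was -0.33. Drd2 was at 21.7, 15.1, 14.5 and 20.9 CPM in thalamus and at 0.31, 1.67, 0.95 and 3.59 CPM in cortex (13.2-fold, adjusted p 0.00881). Drd5 was 5.78-fold higher with overlapping groups, since cortex replicate 4 held 5.57 CPM against at most 0.93 CPM in the other cortex libraries. Adra1d changed by -3.11 ± 0.61 (log2, SE). The calls of Drd5 and Adra1d were lost in 3 of the 4 fits without 1 animal, and that of Drd5 also without the animal term (adjusted p 0.132). Drd5 stood at 3.26 without replicate 4 and Adra1d at -3.79 without replicate 3. Of 9 opioid, adenosine and cannabinoid receptor genes, 2 were higher, the kappa receptor Oprk1 (2.46-fold) and the nociceptin receptor Oprl1 (2.03-fold). The delta receptor Oprd1 was lower (log2 -2.22 ± 0.43 SE), and the list median was -0.26. These 3 genes made up 33.33% of the list, beside 10.3% over all genes. All 3 calls were lost without replicates 1, 2 and 3, when 0 genes of the list differed, and that of Oprk1 also without the animal term (adjusted p 0.076).

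Of 21 tested neuropeptide receptor genes, 4 were higher and 6 lower (47.62%, beside 10.3% over all genes), with a median of 0.01. The VIP receptor Vipr1 was at 36.0, 20.8, 26.7 and 22.5 CPM in cortex and at 1.14, 2.73, 3.21 and 0.53 CPM in thalamus (log2 -3.98 ± 0.50 SE, adjusted p 0.00518). The cholecystokinin receptor Cckbr changed by -2.58 ± 0.21 and the somatostatin receptors Sstr4 and Sstr2 by -3.22 ± 0.52 and -1.97 ± 0.31. The tachykinin receptors Tacr3 and Tacr1 were 8.58-fold and 7.63-fold higher, and the orexin receptor Hcrtr1 was 6.14-fold higher (adjusted p 0.00778). Tacr3, Tacr1, Sstr4 and Sstr2 lost their calls in 1 to 3 of the 4 fits without 1 animal. Tacr3 stood at 2.51 without replicate 1 and 3.78 without replicate 4. Without 1 animal, 1 to 5 genes of this list were higher and 3 to 5 lower, and the median was -0.71 without replicate 1. Of 15 tested neuropeptide genes, 4 were higher and 5 lower (60.0%, beside 10.3% over all genes), with a median of -0.92. Cartpt was at 84.7, 17.1, 23.3 and 103 CPM in thalamus and at 2.08 to 4.93 CPM in cortex (13.7-fold, adjusted p 0.00965). Neurotensin, Nts, was 10.2-fold higher, Tac1, which encodes substance P, 3.45-fold and the nociceptin precursor Pnoc 2.62-fold. Cck, named after its values were seen, changed by -2.11 ± 0.53 (log2, SE, adjusted p 0.0484), and Tac2 by -2.41 ± 0.34. The calls of Nts, Pnoc and Cck were lost in 2 to 4 of the 4 fits without 1 animal. Without the animal term the adjusted p of Nts was 0.053. Nts stood at 4.07 without replicate 4 and Cartpt at 4.41 without replicate 2. Of the neuropeptide genes 2 or 3 were higher and 3 to 6 lower without 1 animal, and the median was -1.52 without replicate 4.

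Of 28 tested genes of transmitter synthesis and transport, 8 were higher and 4 lower (42.86%, beside 10.3% over all genes). The list median was 0.73. The higher genes were Slc17a6, Slc6a3, Slc6a11, Ddc, the glycine transporter Slc6a9, Ache, Gad2 and Slc32a1, and the lower ones included Slc17a7, Slc1a3 and Slc1a2. Slc6a9, which clears glycine, was 3.60-fold higher (adjusted p 0.00303) and was named after its values were seen. Without 1 animal 5 to 9 genes of the list were higher and 1 or 2 lower.

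The same comparison in the 4 ret/ret animals, which carry 2 ret alleles and whose thalamus pieces were the calcifications, tested 14715 genes. In them 1177 (8.0%) differed, 501 higher (3.4%) and 676 lower (4.59%), or 670 and 543 with upper-quartile scaling. Without 1 animal the number was 180, 3341, 70 and 34 for replicates 1 to 4. The genes that differed in both genotypes numbered 742, which is 49.9% of the ret/wt and 63.0% of the ret/ret genes, and all 742 had the same direction. Of the ret/wt genes tested in ret/ret, 1469 of 1474 (99.7%) had the same sign, against 80.6% of the 14295 genes tested in both. Across these genes, which are not independent replicates, Pearson's r between the log2 fold changes was 0.859. All 19 myelin genes were also higher in ret/ret, with a median of 1.55. Of the 16 immediate early genes 10 were lower in ret/ret, with a median of -1.98, and of the 16 thalamic effector genes 0 passed the test there, with a median of 1.51.

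The difference between the genotypes was tested as the interaction of region and genotype over all 16 libraries. Of 15286 genes, 0 passed edgeR's quasi-likelihood test, 243 had an unadjusted p under 0.05 and the smallest adjusted p was 1.0. Those 243 are a smaller share than the 0.05 that evenly spread p-values would give. The lack of calls therefore does not show that the regional differences were equal in the genotypes. limma-voom gave 0 genes and DESeq2 gave 2, Lpl, a lipoprotein lipase gene (interaction 2.99 ± 0.53 SE on the log2 scale), and Cst7, a cystatin gene (7.44 ± 1.44). The regional difference of no gene named above was shown to differ between the genotypes in edgeR's test. Only ret/ret thalamus was dissected by picking calcifications, so genotype and dissection cannot be told apart in this interaction.

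**Figure D5:**
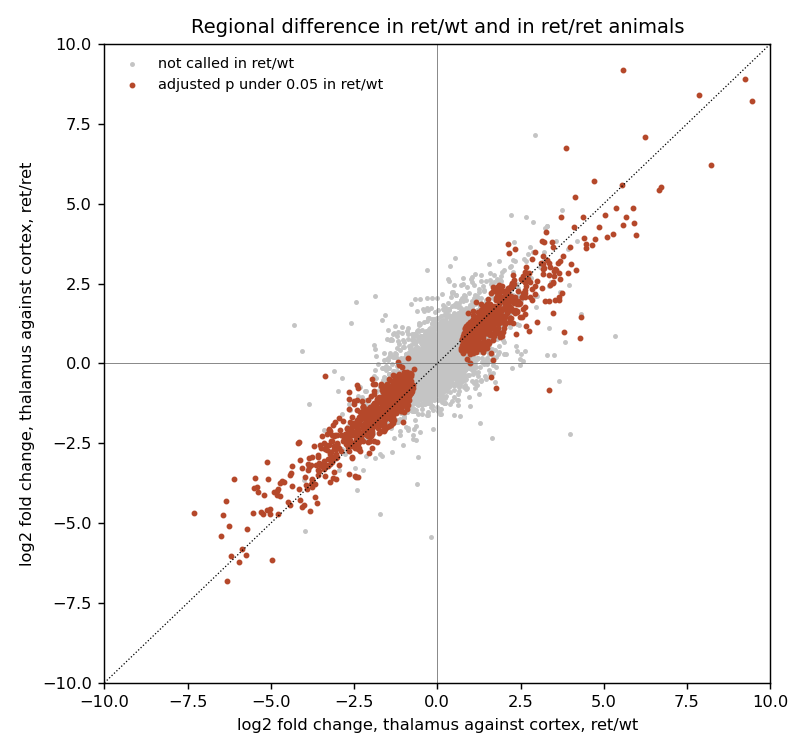
Log2 fold change, thalamus against cortex, of each gene tested in both genotypes, in ret/wt (horizontal axis) and ret/ret (vertical axis), with genes called in ret/wt in red, the others in gray and the dotted line marking equal values. Most red points lie near the line, and 1469 of the 1474 called genes have the same sign in both.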

How the data were processed

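Poly(A)-selected, stranded RNA libraries from cortex and thalamus of ret/wt and ret/ret mice were quantified by the authors and deposited as estimated counts (expected counts) for 21804 genes. The submitters' processing notes name kallisto 0.44.0 and GRCm38.p6, and how transcript values were summed to genes is not given in the sources used here. Of the nonzero values 99.963% were not whole (tolerance 1e-06), so they were rounded. Symbols and coordinates came from GENCODE M21 (GRCm38), which matched 21581 genes (98.977%), and promoters from RefSeq (GRCm38.p6).

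Genes were filtered with filterByExpr (minimum count 10, minimum total 15), scaled by TMM and tested in edgeR 4.0.16 (quasi-likelihood, R 4.3.3), with Benjamini-Hochberg adjustment and a threshold of 0.05. The model held the animal and the region. Both libraries of an animal carry its identifier in the labels, which gives the pairing. The residual correlation of same-animal libraries was -0.06 to 0.18, and in 3 of 4 animals it was below the highest correlation with another animal's library. The same model ran on 8 ret/ret libraries, and an interaction model on all 16. The steps were checked on simulated data.

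Alternatives were limma-voom (limma 3.58.1), DESeq2 1.42.0, other scalings and filters, robust estimation, no animal term and leaving out each animal.

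Members and the 44 gene lists were chosen with earlier results of these data known. Named genes were the 10 largest rises and falls that passed the test without overlap, whose mean log2 CPM reached 1.0 and whose sign was shared by all animals. To these came up to 4 called genes of each list and direction, the 2 most abundant of lists without calls and a set of standard markers. Not all are printed, and some results are not reported here. Lhx9, Fos, Npas4, Ache, Cck, Slc6a9 and Ddx3y lie outside the rule and were named after their values were seen. Sst, Cldn5, Olig2, Nr4a1, Myh11, Sstr3 and Prph were not analysed here. Counting intervals are exact at the 95% level and cover counting error only. Count ratios are scaled to library depth and given where a region held at most 3 counts in any library. Where a region held none, the lower bound takes 3 counts over all its libraries together.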

Additional observations from a re-analysis of the deposited data

Results flagged for a closer look

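Values of each named gene and list score were examined in each region for a library whose gap to its nearest neighbour took up most of the range of the 4 libraries. Of 376 groups of 4 libraries, 30 met this condition, which chance alone meets in about 1 group in 20.

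Thalamus replicate 3 stood high for Prkcd at 1147 CPM (others 10.6 to 184), Nefh at 590.3 CPM (others 298.6 to 347.5), Hcn4 at 52.37 CPM (others 19.7 to 24.9) and the Y-linked Ddx3y at 54.81 CPM (others 0). It stood low for Drd5 at 3.8 CPM (others 7.65 to 8.13) and for the score of habenula genes at 1.325 (others 2.337 to 2.405).

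Thalamus replicate 4 stood high for Ntsr2 at 220.6 CPM (others 112.0 to 123.4) and Pecam1 at 38.66 CPM (others 22.4 to 23.2). It stood low for the scores of potassium channels at 3.389 (others 3.699 to 3.757) and ionotropic glutamate receptors at 5.244 (others 5.871 to 5.94). Long transcripts were low in that library, and their part in these scores was not tested. Thalamus replicate 2 stood high for Egr2 at 5.243 CPM (others at most 0.254) and Mei1 at 0.3823 CPM (others at most 0.059).

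Cortex replicate 3 stood apart for the score of cerebellum genes at 6.124 (others 0.0983 to 0.45), for Barhl1 at 0.6501 CPM (others 0), Irx2 at 0.6067 CPM (others at most 0.072), Prkcd at 23.49 CPM (others 7.27 to 9.998), Ddx3y at 67.35 CPM (others at most 0.217) and, on the low side, Rgs5 at 48.1 CPM (others 61.1 to 63.4).

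Cortex replicate 4 stood high for Ttr at 1023 CPM (others 9.64 to 54.7), Lhx9 at 12.74 CPM (others 0.31 to 0.997), Drd5 at 5.567 CPM (others 0.433 to 0.928), Nts at 3.907 CPM (others 0.077 to 0.724), Trpc4 at 39.66 CPM (others 13.5 to 15.1), Foxb1 at 0.1606 CPM (others 0) and the score of TRP channels at 2.393 (others 2.201 to 2.225).

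Cortex replicate 1 stood high for Ackr2 at 17.94 CPM (others 1.39 to 3.40), Kcnq5 at 202.9 CPM (others 93.1 to 108.1), Oprd1 at 28.15 CPM (others 13.1 to 15.5) and Hcrtr1 at 2.088 CPM (others 1.07 to 1.17). Cortex replicate 2 stood low for Scn2a at 387.3 CPM (others 498.6 to 520.5).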

How the results depend on the processing

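The number of genes differing between thalamus and cortex in ret/wt, 1487 in edgeR's test with the animal term, was 2666 with DESeq2 and 551 to 1553 when 1 animal was left out. Without the animal term (no pairing) it was 1813, of which 1357 were among the 1487. It stayed between 1445 and 1631 with limma-voom, other scalings, other filters and robust estimation. In ret/ret the number, 1177, was 2972 with DESeq2, 1398 without the animal term and 34 to 3341 when 1 animal was left out. The interaction gave 0 genes in each alternative apart from DESeq2, which gave 2. The cause of these differences was not tested. The fits that leave out an animal also hold fewer samples, and the part of sample number was not tested either. Of 143 named genes, 141 reversed under none of 13 alternatives. The log2 fold change of Gfap was -0.0608 without replicate 1 and 0.73 without replicate 3. That of Trem2 was -0.0043 without the animal term and ran from -0.19 without replicate 4 to 0.32 without replicate 2. Neither gene passed the test. Of 128 named genes that did, 62 passed in all 4 fits without 1 animal, 34 were lost in 3 of these fits and 4 in all 4, and 11 were lost without the animal term. Leaving out replicates 1, 2, 3 and 4 cost 50, 54, 47 and 14 calls. Where a region held at most 3 counts in any library, depth limits the size of the difference, which is given there as a ratio of counts with its interval or as a lower bound.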
